A study of Homo sapiens with 11 samples.

Results

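The sodium pump (Na,K-ATPase) genes described here are FXYD3, FXYD5 and FXYD6, which encode small regulatory proteins of the pump, and ATP1B1 and ATP1B3, which encode its beta subunits. These 5 genes, of 28395 in the count tables, were chosen because FXYD6 fell strongly when ST6GAL1 was overexpressed in DU145 cells, so the values of that comparison are given as a description, without p-values. Where a gene is said to be called in DU145, this says only that it passed both thresholds defined below. The RNA came from PC3 and DU145, established human prostate cancer cell lines grown from metastases. In each line, a stable population transduced with an ST6GAL1 lentivirus was set against a population carrying the Lenti-ORF control lentivirus, so every library comes from transduced cells. There were 3 control and 3 ST6GAL1 libraries in PC3, and 3 control and 2 ST6GAL1 libraries in DU145, where the ST6GAL1 libraries are numbered 2 and 3.

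The Na,K-ATPase exports sodium and imports potassium at the plasma membrane, using ATP. An alpha subunit carries out transport, a beta subunit bearing N-linked glycans is needed for the pump to reach the cell surface, and an FXYD protein that spans the membrane a single time tunes its affinity for ions. Beta subunits also take part in adhesion between cells, and FXYD5 (dysadherin) is known for its association with lowered adhesion in carcinomas. ST6GAL1 is the sialyltransferase that caps N-linked glycans with sialic acid.

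The 11 libraries held between 13194485 and 18201359 counts, at which 3 counts correspond to 0.165 to 0.224 CPM (counts scaled to the library total). ST6GAL1 (chromosome 3, 186930526 to 187078553) had 53, 33 and 47 counts in the PC3 controls and 490, 575 and 516 in the PC3 ST6GAL1 libraries. In DU145 it had 216, 206 and 152 counts in the controls and 5376 and 5350 with overexpression, so each library matched its label. The epithelial genes EPCAM, KRT8 and KRT18 were read in every library, while the prostate luminal genes KLK2 and KLK3 and the T cell gene CD3E had 0 counts in all of them. The leukocyte, endothelial and fibroblast genes PTPRC, CDH5, PDGFRA and LUM stayed below 1 CPM, and PECAM1 was read at 5.63 to 7 CPM in PC3 and at 0.198 to 1.45 CPM in DU145. Each line has its own count table, so the line and the table cannot be told apart.

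Levels below are normalized CPM, scaled over the 11 libraries together, and fold changes come from a fit of each line alone (edgeR's quasi-likelihood test). Calls required both a Benjamini-Hochberg adjusted p under 0.05 and a log2 fold change beyond 0.58 in either direction. Positions are on GRCh38. Changes in the amount of an RNA per cell and in the share of cells that carry it cannot be told apart in these bulk libraries.

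The sequences shown are stretches upstream of an annotated transcript start of FXYD3 and of FXYD6, the members whose RNA differed most between control and ST6GAL1 libraries. They come from the RefSeq promoter table (GRCh38.p14), 5′ to 3′ on the gene's own strand, with each CG dinucleotide in capitals. FXYD3 is chr19:35117750-35117999 on the plus strand, which lies inside the span of the gene given below, before an internal start, and where none of the 250 bases is in an exon. The stretch of FXYD6 is chr11:117877487-117877680 on the minus strand, the 194 bases of its window that lie outside exons. The 56 bases nearest the start lie in an exon and are not shown.

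FXYD3: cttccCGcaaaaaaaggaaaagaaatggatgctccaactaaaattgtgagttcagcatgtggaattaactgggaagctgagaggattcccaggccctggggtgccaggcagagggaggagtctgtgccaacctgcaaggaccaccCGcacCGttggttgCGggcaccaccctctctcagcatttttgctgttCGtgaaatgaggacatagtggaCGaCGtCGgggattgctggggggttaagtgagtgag

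FXYD6: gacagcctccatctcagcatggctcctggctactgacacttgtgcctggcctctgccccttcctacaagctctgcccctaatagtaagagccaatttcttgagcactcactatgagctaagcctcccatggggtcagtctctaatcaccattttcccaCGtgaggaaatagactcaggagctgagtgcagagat

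The 250-base window before this start of FXYD3 held 8 CG dinucleotides and that of FXYD6 held 4, of which 1 is in the stretch shown. The corresponding window held 13 for FXYD5, 35 for ATP1B1 and 39 for ATP1B3, against a median of 11 (quartiles 3 to 23) over 35116 such windows. A window at another annotated start of FXYD6 held 23. Which start was used in these cells was not measured.

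FXYD6 (chromosome 11, 117836981 to 117877430), which encodes the pump regulator phosphohippolin, was read in DU145 and was at or near 0 in PC3. The DU145 controls had 19.49, 20.11 and 15.18 CPM, from 295, 317 and 203 counts. The DU145 ST6GAL1 libraries had 1.934 and 2.68 CPM, from 30 and 48 counts. Both ST6GAL1 libraries lay far below all 3 controls, and the values of the 2 groups did not approach each other. This was a log2 fold change of -2.97 (SE 0.195); the counts were 7.89-fold lower with a counting interval (95%) of 6.25 to 10.1. In PC3 the counts were 0, 0 and 0 in the controls and 1, 0 and 0 with ST6GAL1, so no fold can be given there.

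Between the control populations, FXYD6 was at least 93.3-fold higher in DU145 than in PC3, taking 3 counts in each PC3 library as the limit. With ST6GAL1 overexpressed, it was at least 11.3-fold higher in DU145. FXYD6 therefore stayed above its PC3 level in DU145 after its decrease. Reads of FXYD6 could also come from FXYD6-AS1 and from the read-through gene FXYD6-FXYD2, which share 625 and 390 exon bases with it. FXYD6-FXYD2 was listed at 0 counts in every library.

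**Figure D1:**
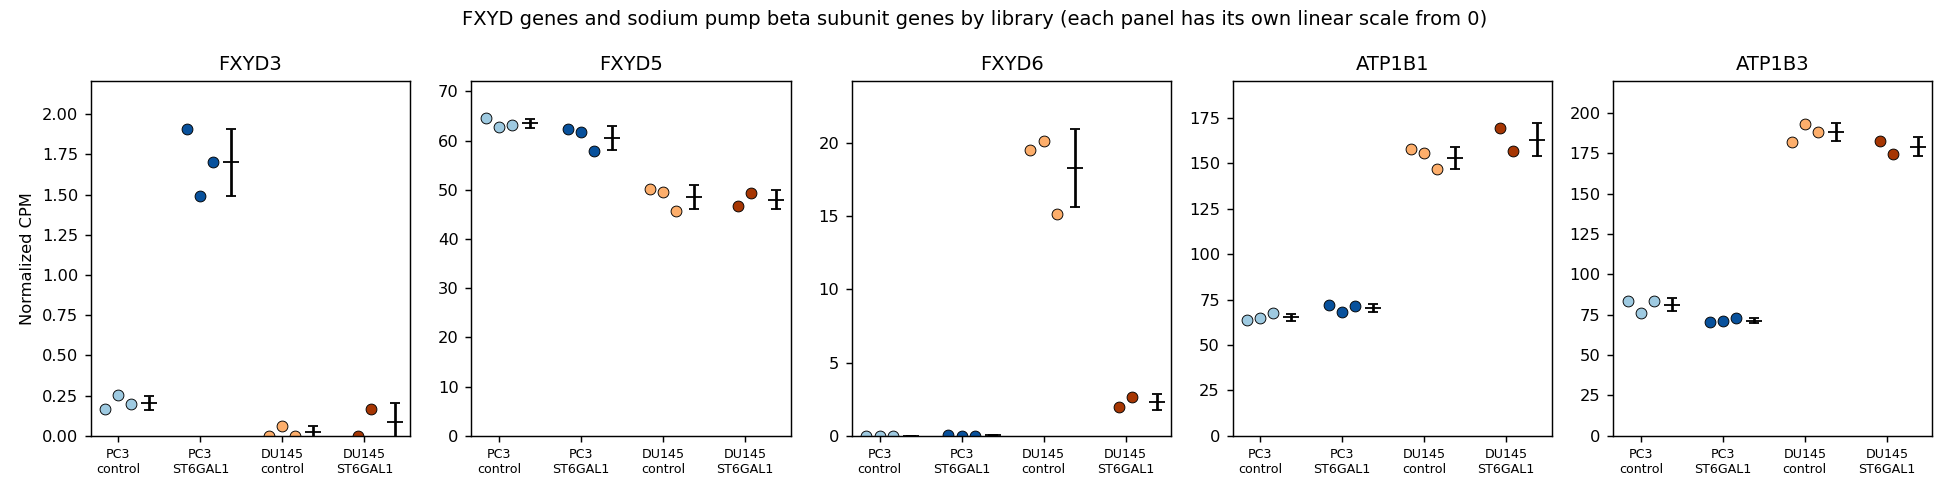
Normalized CPM of the 5 genes in each library (points, in the order of the replicate numbers) with the mean and SD of each group (black), each panel on its own linear scale from 0. FXYD6 falls from 15.18 to 20.11 CPM in DU145 controls to 1.934 and 2.68 with ST6GAL1, and FXYD3 is at most 0.253 CPM in PC3 controls and at least 1.489 CPM in PC3 with ST6GAL1, while FXYD5, ATP1B1 and ATP1B3 keep to narrow ranges within each line.

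FXYD3 (chromosome 19, 35115823 to 35124324), known as Mat-8 and first described in mammary tumours, was higher in PC3 with ST6GAL1, at low counts. The PC3 controls had 3, 4 and 3 counts (0.168, 0.253 and 0.196 CPM) and the PC3 ST6GAL1 libraries 28, 27 and 27 counts (1.905, 1.489 and 1.705 CPM). All 3 ST6GAL1 libraries stood above all 3 controls, although the controls lay at about the level of 3 counts. The log2 fold change was 3.00 (SE 0.377), and the ratio of counts was 8.26 with a counting interval (95%) of 4.27 to 17.9. FXYD3 passed the filter on low counts only through the ST6GAL1 libraries, so its fold rests on few control reads and is given as a description, without a p. In DU145 it had 0, 1 and 0 counts in the controls and 0 and 3 with ST6GAL1, and no fold is given.

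FXYD5 (chromosome 19, 35154735 to 35169881) was the most abundant FXYD RNA in both lines and differed little with ST6GAL1. In PC3 it measured 64.61, 62.8 and 63.13 CPM in the controls and 62.32, 61.72 and 57.83 CPM with ST6GAL1. Its log2 fold change of -0.07 (SE 0.0435) did not pass the test (adjusted p = 0.238, edgeR), although the lowest control lay just above the highest ST6GAL1 library. In DU145 it measured 50.15, 49.62 and 45.63 CPM in the controls and 46.68 and 49.4 CPM with ST6GAL1. The DU145 groups overlapped, with a log2 fold change of -0.01 and an interval (95%) of -0.18 to 0.17.

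FXYD5 and FXYD3 lie on the same stretch of chromosome 19, and the genes around them in PC3 had a median fold change near 0. The median log2 fold change over the 40 tested genes within 1 Mb of FXYD3 in PC3, itself left out, was 0.02. Around FXYD6, the median over the 22 tested genes in DU145 was 0.14, with 16 higher and 6 lower in direction. The fall of FXYD6 was thus opposite in sign to the median of its neighbourhood, which was 0.02 when the window was widened to 2 Mb.

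ATP1B1 (chromosome 1, 169106690 to 169132719), the beta subunit most widely found in epithelia, was slightly higher with ST6GAL1 in PC3. It measured 63.49, 64.7 and 67.37 CPM in the PC3 controls and 71.78, 67.96 and 71.28 CPM with ST6GAL1. The groups did not overlap, but the gap between them was smaller than the range within either group. With ST6GAL1 the log2 fold change was 0.11 (SE 0.0422, adjusted p = 0.0366, edgeR), below the fold needed for a call. It no longer passed when control library 1 or 2, or ST6GAL1 library 1 or 3, was left out, nor with DESeq2 (adjusted p = 0.135). In DU145, ATP1B1 measured 157.9, 155.8 and 146.8 CPM in the controls and 169.5 and 156.6 CPM with ST6GAL1, overlapping groups with a log2 fold change of 0.09 (SE 0.0754).

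ATP1B3 (chromosome 3, 141876643 to 141926549), a beta subunit also known as CD298, was lower with ST6GAL1 in PC3. It measured 83.54, 76.28 and 83.74 CPM in the PC3 controls and 70.15, 70.99 and 72.74 CPM with ST6GAL1. Every ST6GAL1 library lay below every control. The log2 fold change was -0.19 (SE 0.0414, adjusted p = 0.000348, edgeR), past the adjusted p but below the fold needed for a call, and over the alternatives tried it stayed between -0.23 and -0.17 with an adjusted p of at most 0.00507. In DU145 it measured 182, 193.1 and 188.3 CPM in the controls and 182.8 and 174.4 CPM with ST6GAL1, where the groups overlapped and the log2 fold change was -0.07 (SE 0.0724).

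Of the 5 members, 4 were tested in PC3. By adjusted p alone 3 of these passed, FXYD3 and ATP1B1 higher and ATP1B3 lower. The shares over all tested genes were 37.3% in either direction and 18.5% in the lower direction. By adjusted p and fold, 3.61% of all tested genes were called higher and 1.76% lower. FXYD3 was past both thresholds. Nothing is read from its passing by either rule, since it entered the test only through the ST6GAL1 libraries. In DU145, FXYD6 was the only one of 4 tested members past both thresholds, beside 4.33% of genes called higher and 4.61% called lower, and nothing is read from that share since FXYD6 was chosen on it.

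The difference between the lines in the response to ST6GAL1 can be given for the 3 members expressed in both. It was 0.05 on the log2 scale for FXYD5 (95% interval -0.116 to 0.225), -0.02 for ATP1B1 (-0.175 to 0.128) and 0.12 for ATP1B3 (-0.032 to 0.262), each as DU145 minus PC3. These intervals all include 0, and they leave room for differences of about the size of the ATP1B3 change in PC3. ST6GAL1 itself averaged 32.5 CPM in the PC3 ST6GAL1 libraries and 323 CPM in those of DU145. The line and the level of overexpression therefore cannot be told apart in this comparison.

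The control populations of the 2 lines differed more than either did with ST6GAL1 for the beta subunits. ATP1B1 was higher in DU145 controls by 1.24 on the log2 scale (SE 0.0503, adjusted p = 7.17e-19, edgeR), and ATP1B3 by 1.21 (SE 0.0498, adjusted p = 9.61e-19, edgeR). FXYD5 was lower in DU145 by 0.38 on that scale (log2 fold change -0.38, SE 0.0571, adjusted p = 5.52e-07, edgeR), which is under the fold threshold. Of all tested genes, 64.6% were called between these controls, so a call between the lines is common.

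Both beta subunits were higher in the DU145 groups than in the PC3 groups. Within each line the ST6GAL1 mean was the higher for ATP1B1 and the control mean the higher for ATP1B3, and the groups overlapped in DU145 but not in PC3. For FXYD5 the order ran from PC3 controls through PC3 ST6GAL1 to the DU145 groups, which overlapped each other. For FXYD6 it ran from DU145 controls through DU145 ST6GAL1 to PC3, where both groups were at about 0.

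The ratio of ATP1B3 to ATP1B1 within a library does not depend on the scaling between libraries. In PC3 it was 1.32, 1.18 and 1.24 in the controls and 0.977, 1.04 and 1.02 with ST6GAL1, that is 1.25 ± 0.0685 (SD, n = 3) against 1.01 ± 0.0341 (SD, n = 3). The groups did not overlap. No test is given, since an exact permutation p for 3 against 3 libraries cannot go below 0.1. In DU145 the ratio was 1.15, 1.24 and 1.28 in the controls and 1.08 and 1.11 with ST6GAL1. Both DU145 ST6GAL1 libraries lay below the controls, by a margin smaller than the spread of the controls.

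**Figure D2:**
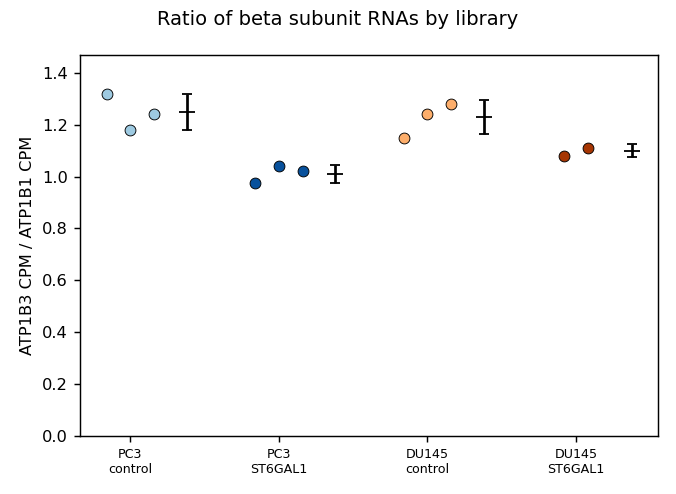
Ratio of ATP1B3 CPM to ATP1B1 CPM in each library (points), with the mean and SD of each group (black), on a linear axis from 0. The PC3 ST6GAL1 libraries (0.977 to 1.04) lie below the PC3 controls (1.18 to 1.32), and the DU145 ST6GAL1 libraries (1.08 and 1.11) lie just below the DU145 controls (1.15 to 1.28).

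To compare levels between genes, CPM was divided by the exon length of each gene in kilobases. FXYD5 made up 99.5% ± 0.23 (SD, n = 3) of the summed FXYD level in PC3 controls and 97.1% ± 0.48 (SD, n = 3) with ST6GAL1. FXYD3 accounted for 0.295% ± 0.065 (SD, n = 3) and 2.49% ± 0.29 (SD, n = 3) of that sum. At its higher level too, FXYD3 was a minor FXYD RNA in PC3, at 0.582 ± 0.0712 CPM per kb (SD, n = 3) beside 22.7 ± 0.914 for FXYD5 (SD, n = 3).

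In DU145 controls FXYD5 made up 73.8% ± 2.1 (SD, n = 3) of the summed FXYD level and FXYD6 25.6% ± 1.9 (SD, n = 3). With ST6GAL1 the shares were 95% ± 1.3 (SD, n = 2) and 4.2% ± 0.74 (SD, n = 2). The summed FXYD level was 24.7 ± 1.92 CPM per kb (SD, n = 3) in the controls and 19 ± 1.03 (SD, n = 2) with ST6GAL1, while that of FXYD5 alone was 18.2 ± 0.928 (SD, n = 3) and 18 ± 0.724 (SD, n = 2). With the longest transcript in place of all exons, the FXYD6 share was 21.6% in the controls and 3.39% with ST6GAL1. With only the exon bases that FXYD6-FXYD2 does not share, an alternative chosen after the data were seen, it was 28.5% and 4.82%. The other family members stayed low: FXYD1, FXYD4 and FXYD7 had at most 3 counts in any library, and FXYD2 had 0 in all 11.

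ATP1B3 was the main beta subunit RNA per length in each group. It made up 78.1% ± 0.93 (SD, n = 3) of the summed beta level in PC3 controls and 74.4% ± 0.66 (SD, n = 3) with ST6GAL1, and 77% ± 0.98 (SD, n = 3) and 75.6% ± 0.37 (SD, n = 2) in DU145. The 2 lines, which differed in the amount of both beta subunits, thus had close shares of them.

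**Figure D3:**
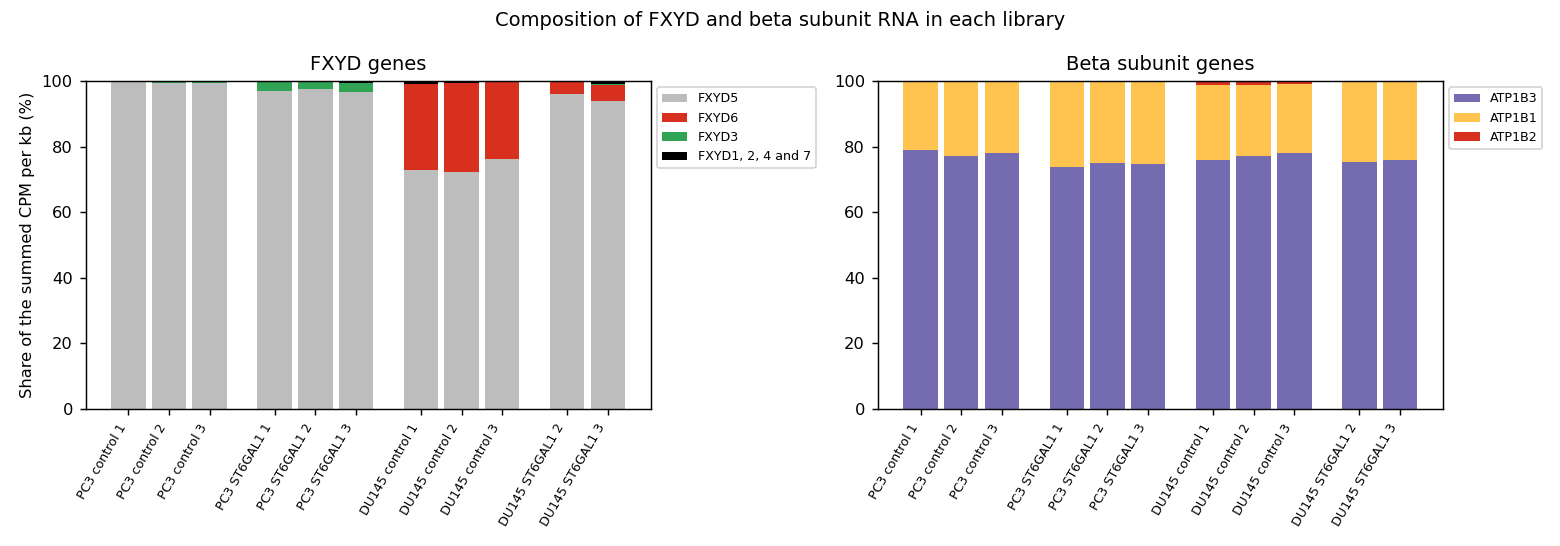
Share of each gene in the summed CPM per kb of the FXYD family (left) and of the beta subunits (right), in percent, 1 bar for each library. FXYD5 fills nearly all of the FXYD level in PC3, FXYD6 takes 23.5% to 27.1% of it in DU145 controls and 3.68% to 4.72% with ST6GAL1, and ATP1B3 is the larger beta share throughout.

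Of the other beta subunits, ATP1B2, known as the adhesion molecule on glia, was lower in DU145 with ST6GAL1, as FXYD6 was. It measured 4.229, 4.568 and 3.74 CPM in the DU145 controls and 1.289 and 1.507 CPM with ST6GAL1, from 64, 72 and 50 counts and 20 and 27 counts. The groups were well apart, with a log2 fold change of -1.57 (SE 0.23). The 69 tested genes within 1 Mb of ATP1B2 had a median of -0.14, with 51 lower and 18 higher in direction. In PC3, ATP1B2 had at most 3 counts in any library.

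Around the pump, 53 genes were listed: the FXYD family, the pump subunits, proteins that bind or regulate the pump, routes of sodium entry and cation chloride transport, kinases and ligases of sodium transport, and calcium pumps. In PC3, 33 of them were tested, and 3 were called higher and 3 lower, which is 18.2% beside 3.61% of all tested genes called higher and 1.76% called lower. The median log2 fold change was -0.02, beside -0.0016 over all genes tested. In DU145, 32 were tested, and 3 were called higher and 5 lower, which is 25% beside 4.33% and 4.61% of all tested genes, with a median of 0.0032 beside -0.0016 over all genes. Since these lists were written with earlier results of these data known, their counts are a description.

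Among the routes of sodium entry, SCNN1A, a subunit of the epithelial sodium channel, followed FXYD6 in DU145. It measured 60.59, 62.69 and 56.77 CPM in the controls and 16.57 and 19.87 CPM with ST6GAL1, a log2 fold change of -1.71 (SE 0.107). Both ST6GAL1 libraries were far below the controls. In PC3 it was low, between 1.288 and 2.427 CPM, with overlapping groups. HSD11B2, which protects the mineralocorticoid receptor from cortisol, was also called lower in DU145, with a log2 fold change of -0.94 (SE 0.298) at 23 to 33 counts in the controls and 13 and 21 with ST6GAL1. Its call was lost in 5 of 11 alternatives.

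In PC3, SLC12A2, the cotransporter that brings sodium, potassium and chloride into the cell, was called higher. It measured 119.7, 124 and 122.5 CPM in the controls and 201.2, 200.6 and 200 CPM with ST6GAL1, a log2 fold change of 0.72 (SE 0.0314, adjusted p = 4.34e-22, edgeR). In DU145 it lay between 15.67 and 18.44 CPM with overlapping groups. SGK1, the kinase that raises sodium transport in response to aldosterone, was lower in PC3 at 17.41, 17.9 and 18.39 CPM in the controls and 8.573, 8.66 and 8.966 CPM with ST6GAL1. Its log2 fold change was -1.03 (SE 0.0855, adjusted p = 3.84e-13, edgeR). In DU145 it went the other way, from 3.436, 4.568 and 3.59 CPM in the controls to 6.834 and 4.912 CPM, with groups apart and a log2 fold change of 0.60 (SE 0.202) that was not called. SIK1, a salt-inducible kinase that regulates the pump, was called lower in PC3 (log2 fold change -0.77, SE 0.237, adjusted p = 0.00888, edgeR), a call lost with DESeq2 and without the second control.

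ANK3, an ankyrin that anchors the pump to the membrane skeleton, was called higher in DU145 with a log2 fold change of 1.35 (SE 0.253), from 1.079 to 1.652 CPM in the controls to 4.126 and 3.294 CPM. In PC3, where it was far more abundant, it measured 66.65 to 75.01 CPM in the controls and 87.32 to 90.16 CPM with ST6GAL1, a log2 fold change of 0.32 (SE 0.0412) that is below the fold threshold. Of the calcium pumps, ATP2B4 of the plasma membrane was called higher in DU145, from 349.4 to 390.4 CPM in the controls to 725.7 and 689.6 CPM, a log2 fold change of 0.94 (SE 0.0779). In PC3, ATP2B4 lay between 74.91 and 83.46 CPM with overlapping groups and a log2 fold change of -0.01 (SE 0.0408).

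ATP2C2 and ATP2A3 passed both thresholds in each line. ATP2C2, a pump of the secretory pathway, had a log2 fold change of 2.45 (SE 0.371) in PC3 and 2.38 (SE 0.335) in DU145, from at most 8 counts in any control library to between 21 and 41 with ST6GAL1. Like FXYD3, it passed the filter on low counts through the ST6GAL1 libraries, so its values are a description, without a p. ATP2A3, a pump of the endoplasmic reticulum, was lower with a log2 fold change of -1.72 (SE 0.302) in PC3 and -0.86 (SE 0.146) in DU145. In PC3 it had 33, 26 and 25 counts in the controls and 8, 9 and 8 with ST6GAL1. It passed the filter there only through the controls, so its PC3 values too are a description, without a p.

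**Figure D4:**
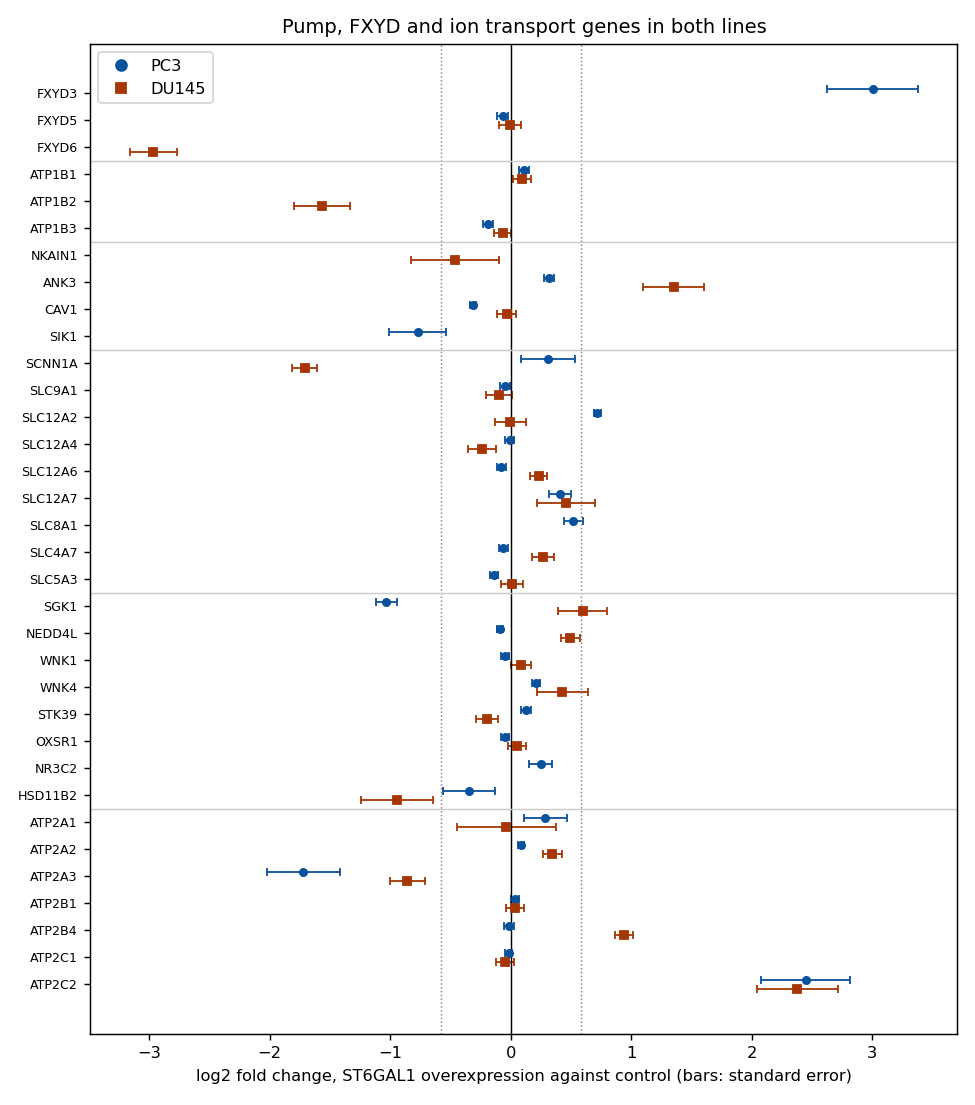
Log2 fold change of ST6GAL1 overexpression against control for the listed genes that were tested and are reported here, in PC3 (circles) and DU145 (squares), with standard errors as bars, grey lines between lists and dotted lines at the fold threshold of 0.58. FXYD6 at -2.97 in DU145 and FXYD3 at 3.00 in PC3 lie farthest from 0, each tested in a single line.

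The genes whose levels over the 11 libraries were most like those of FXYD6 were found by the root mean square difference of log2(normalized CPM + 0.5), each gene centred on its own mean, among 14236 genes with at least 1 CPM in a group. The nearest was CD74, the invariant chain of the class II antigen pathway, at a difference of 0.209 and with means of 18.2 CPM in DU145 controls and 3.26 CPM with ST6GAL1. CDHR1, a photoreceptor cadherin, followed at 0.227, with 20.5 and 3.32 CPM. SCNN1A (0.402), PXMP4, a peroxisomal membrane protein (0.415), and FGB, the fibrinogen beta chain (0.433), came next. All 5 were the same when at least 5 CPM was required. They lie on other chromosomes than FXYD6.

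For FXYD3 the nearest genes were TRIM22, an interferon-induced ligase, at 0.162, BMP3, a bone morphogenetic protein, at 0.222, CAPN8, a calpain, at 0.235, CD33, a sialic acid-binding lectin, at 0.237, and GJB2, a gap junction protein, at 0.251. Each was low, with a mean between 1.36 and 2.56 CPM in the PC3 ST6GAL1 libraries and between 0.161 and 0.845 CPM in the PC3 controls. None of these 5 remained among the nearest when at least 5 CPM was required, since all are below that level. At such counts this likeness carries much counting error.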

How the data were processed

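RNA-Seq counts of PC3 and DU145 libraries were used. The authors worked in Galaxy, where Cutadapt trimming and HISAT2 mapping to hg38 preceded gene counting by featureCounts, and deposited the raw counts by Entrez identifier. The annotation and strand setting of the counting are not given in the sources used here. With R 4.3.3 and edgeR 4.0.16, each line was fitted alone (filterByExpr, TMM factors, robust quasi-likelihood test, Benjamini-Hochberg adjustment). The SE was derived from the F statistic. DESeq2 1.42.0 and limma-voom (limma 3.58.1), other filters, RLE factors, the replicate number as a block and each library left out were alternatives. Gene lengths are exons of protein-coding GENCODE transcripts, in place of the RefSeq exons first planned. The labels call replicates biological, without saying how they were separated, so p-values measure the spread between these libraries. Counting intervals cover counting error only. Members, lists and the rule for named genes (members, subunits at 1 CPM or more, called list genes and the nearest 5 genes) were chosen with earlier results of these data known. On simulated counts, 200 well-counted genes were changed by 1 on the log2 scale. The PC3 fit recovered 100% of them with 0 false calls, and the DU145 fit 97% with 6. This does not cover low counts, such as those of FXYD3, or smaller changes, such as that of ATP1B3. Some listed genes are counted in the list totals but not reported here.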

Additional observations from a re-analysis of the deposited data

How the results depend on the processing

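Of 253 recomputed values, 227 kept their direction and side of the threshold or moved by less than the spread, and none reversed. The number of genes called in PC3 was 728, and became 5056 by adjusted p alone and 286 with a log2 fold change over 1. In DU145 it was 1222, and became 2747 and 596 under the same changes. Leaving out 1 DU145 library gave between 830 and 2072 calls, the latter without ST6GAL1 library 3, which leaves 1 ST6GAL1 library that is assumed to vary like the controls. With a minimum of 10 counts in every sample, 3 of the 6 listed genes called in PC3 were still called, since FXYD3, ATP2A3 and ATP2C2 were then not tested. The log2 fold change of ATP1B1 in PC3 was 0.11 with DESeq2 (0.1107, adjusted p = 0.135) and 0.104 without a filter (adjusted p = 0.0605), no longer past the adjusted p, and 0.0888 to 0.136 with 1 library left out. With 1 library left out, the DU145 log2 fold change ranged from -3.23 to -2.78 for FXYD6, from 0.0219 to 0.154 for ATP1B1 and from -0.113 to -0.0274 for ATP1B3, and the difference between lines for ATP1B1 from -0.091 to 0.0237. Whether the replicate numbers pair the samples was not settled. Correlations of deviations for the same number were 0.0239, 0.0999 and 0.0246 in PC3, where different numbers gave -0.0688 to 0.0437. DU145 had only 2 pairs, at 0.193 and 0.506. Its 2 ST6GAL1 libraries deviate from their mean in mirror image, so the check cannot decide there. These 2 libraries also differed from each other more than any other 2 libraries of a group. The chi-square per gene, which sets such a difference against counting error, was 13.35 for them. It was 2.709 to 5.464 between DU145 controls and 1.387 to 2.481 between PC3 libraries of the same group. With the replicate number as a block, 740 genes were called in PC3 and 1517 in DU145, and no member's call changed. In PC3 the first control was closer to ST6GAL1 library 3 (0.0437) than to its own number. Depth limits FXYD3 in every group and FXYD6 in PC3.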
